A study of Mus musculus with 9 samples.

Results

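The SLCO and SLC22 genes encode membrane carriers that move organic anions and cations across the cell surface. They were taken from the count table by gene symbol, as every Slco gene of families 1 to 6 and every numbered Slc22a gene. No measured value entered this rule, but the carriers were chosen as a subject with earlier results of these data known. The rule gave 41 of the 23337 genes in the table, 15 of them SLCO and 26 SLC22. The table comes from polyadenylated RNA of the livers of 9 C57BL/6 mice fed a high-fat diet for 16 weeks from an age of 6 to 8 weeks. The gene under study is F2rl1, which encodes the protease-activated receptor PAR2. The dHep group (genotype PAR2dHep) lacks the receptor in hepatocytes, the KO group (PAR2 KO) lacks it in the whole body, and the WT group is floxed (PAR2fl/fl), with 3 mice in each. The labels name neither the Cre driver nor the sex of the mice, and they give no litter, cage or batch. They do not say whether the KO mice share a breeding line with the floxed mice.

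Carriers of both families sit mostly on the blood-facing side of hepatocytes, where they take up bile acids, bilirubin conjugates, steroid sulphates, drugs, carnitine and organic cations for metabolism and excretion. In mouse liver several of them are known to differ between the sexes, with Slco1a1 and Slc22a28 higher in males and Slc22a27 and Slc22a26 higher in females. Many other SLC22 carriers are known from the kidney tubule, where they secrete anions or take urate back from the urine.

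Assigned reads ran from 18683660 to 30509242 per library. F2rl1 had 2, 8 and 0 reads in the dHep libraries, 71, 103 and 76 in the libraries labelled KO, and 17, 27 and 28 in the WT libraries. It was lower in dHep than in WT (log2 fold change -2.73, adjusted p = 0.0164, edgeR) and higher in the libraries labelled KO than in WT (2.22, adjusted p = 0.00735, edgeR). The dHep call passed under 14 of 17 alternatives (-4.59 to -2.27, highest adjusted p = 0.0620) and the other under all 17. The count goes against the KO label; the labels do not say which exons are deleted, and every direction given for that group is a direction of the libraries labelled KO. The summed level of 6 hepatocyte markers was 96662 to 141080 CPM in dHep, 93165 to 105820 CPM in the libraries labelled KO and 90215 to 95168 CPM in WT; 4 of them rose in dHep, and 2 rose among the libraries labelled KO. Of the 4 macrophage markers tested, 2 fell in dHep, and 4 fell among the libraries labelled KO, with sums of 117 to 210 CPM in dHep, 46.7 to 90.9 CPM in the libraries labelled KO and 181 to 229 CPM in WT. The 5 stellate cell markers did not pass in dHep, and 4 of them fell among the libraries labelled KO, with sums of 302 to 472 CPM in dHep, 234 to 314 CPM in the libraries labelled KO and 445 to 497 CPM in WT. Of all genes tested, 12.4% were higher and 11.9% lower in dHep than in WT. The shares were 20.9% and 22.1% in the libraries labelled KO. The part of these cell types in the carrier changes was not tested. Reads of other tissues stood out in 3 libraries. The summed level of 11 pancreatic acinar markers was 1663 CPM in dHep replicate 2 and 412 CPM in WT replicate 1, against 12.5 to 84.7 CPM in the others, and that of 6 skeletal muscle markers was 502 CPM in dHep replicate 2, against at most 43.2 CPM elsewhere. The intestinal gene Sis had 76.1 CPM in KO replicate 1. The summed level of the 7 intestinal markers was highest in WT, but this sum was mostly Apoa4 and Fabp2. That sum was 308 to 587 CPM in dHep, 641 to 933 CPM in the libraries labelled KO and 2128 to 4186 CPM in WT. Over the 9 libraries Apoa4 ran from 151 to 3870 CPM and Fabp2 from 156 to 316 CPM. The other genes of the list, Sis, Vil1, Lct, Cdx2 and Cdx1, reached at most 76.1, 39.3, 26.2, 1.46 and 0.470 CPM. The sum is therefore no measure of intestinal reads in WT. The X-inactivation transcript Xist reached at most 0.107 CPM and the Y-linked gene Ddx3y ran from 60.8 to 97.0 CPM over the 9 libraries, the pattern of male tissue in each.

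Of the 41 carriers, 20 passed the filter on low counts, 6 SLCO and 14 SLC22. Among them, 18 were over the filter level in every library. Slc22a17 was over it in 3 dHep libraries, 1 labelled KO and 2 of WT. Slc22a26 was over it in 2 dHep libraries, 3 of WT and 0 labelled KO, so it was tested only through the groups where it was higher. Of the 21 that did not pass, 4 had no read in any library (Slco6b1, Slco6c1, Slco6d1 and Slc22a16), 12 had 1 to 9 reads over all 9 libraries and 5 had 10 or more. The 12 were Slco1a5, Slco1a6, Slco4c1, Slc22a2, Slc22a6, Slc22a8, Slc22a12, Slc22a13, Slc22a14, Slc22a19, Slc22a20 and Slc22a22. The 5 were Slc22a21, a mouse carnitine carrier, with 56 reads, Slco1c1, a thyroid hormone carrier, with 35, Slco4a1 with 30, Slco5a1 with 23, of which 16 fell in dHep replicate 2, and Slc22a13b with 15. The kidney carriers Slc22a6, Slc22a8 and Slc22a12, known for secreting anions and taking up urate, had totals of 2, 2 and 6 reads. A library with no read of a gene allows up to 0.0899 to 0.173 CPM, the level of 3 reads, which covers counting error only. Of 7 kidney tubule markers, Slc34a1 and Kap had 0 reads in all libraries, and Slc5a2, Umod, Cubn and Miox had 1, 2, 10 and 17 reads. The other, the endocytic receptor Lrp2, was the one tested; it had 107 reads in dHep, 468 in the libraries labelled KO and 25 in WT. Lrp2 rose by 2.29 on the log2 scale in dHep and by 4.65 in the libraries labelled KO (adjusted p = 0.0378 and 0.000929, edgeR), and was 2.36 higher in the libraries labelled KO than in dHep (adjusted p = 0.0351, edgeR). The dHep call and the call between the libraries labelled KO and dHep each passed under 8 of 17 alternatives. The summed level of the 7 was 0.779 to 3.38 CPM in dHep, 5.35 to 10.4 CPM in the libraries labelled KO and 0.285 to 0.488 CPM in WT; its part in the carrier changes was not tested.

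In the dHep livers 7 of the 20 tested carriers changed against WT, 5 up (Slco1a1, Slco2a1, Slc22a7, Slc22a28 and Slc22a30) and 2 down (Slc22a27 and Slc22a29). That is 35% of the carriers, beside 24.3% of all 13141 genes tested, of which 12.4% were higher and 11.9% lower. In the libraries labelled KO 11 of the 20 changed against WT, the same 5 and Slc22a18 up and Slco1a4, Slc22a5, Slc22a26, Slc22a27 and Slc22a29 down. Here 55% of the carriers stand beside 43.0% of all genes, with 20.9% higher and 22.1% lower. The 11 include Slc22a26, which was tested only through the groups where it was higher. The libraries labelled KO differed from dHep in 2 carriers, both lower: Slc22a27, and Slc22a26, which passed the filter through dHep and WT libraries alone. This 10% is close to the 9.62% of all genes, of which 4.23% were higher and 5.39% lower. No carrier was higher at the adjusted threshold in edgeR, DESeq2 or limma voom, and 1, 1 and 4 were higher at an unadjusted p under 0.05.

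The typical size of the change was larger among the tested carriers than over all genes. The median absolute log2 fold change was 0.58 for the carriers and 0.32 for all genes in dHep against WT, 0.84 and 0.44 in the libraries labelled KO against WT, while the libraries labelled KO had 0.37 and 0.26 against dHep. The signed medians of the carriers were 0.10, 0.10 and 0.08, since rises and falls stood side by side. The first 2 comparisons share the WT libraries. A bulk liver sample cannot tell fewer cells of a type apart from less RNA per cell. The p-values rest on the spread between libraries of the same group, estimated in 1 fit over all 9 libraries.

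**Figure D1:**
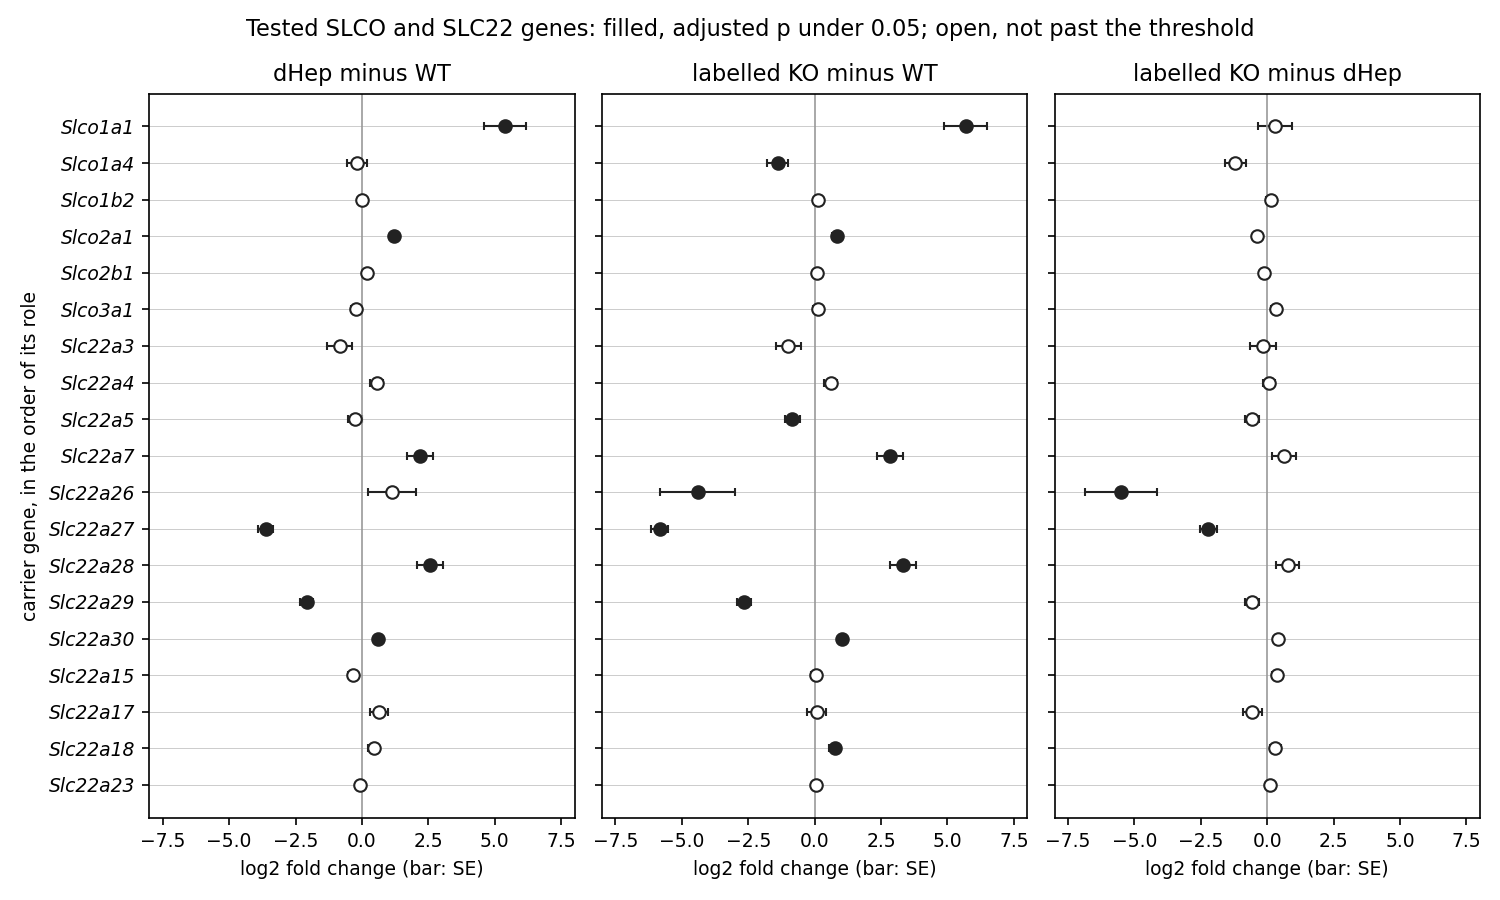
Log2 fold change (horizontal axis, bar: SE) of 19 tested carriers in dHep against WT, the libraries labelled KO against WT and the libraries labelled KO against dHep; filled points passed an adjusted p of 0.05. Slco1a1 lies farthest to the right in both comparisons with WT (5.39 and 5.68) and Slc22a27 farthest to the left (-3.62 and -5.83), while Slco1b2 stays at 0.00 and 0.13.

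The Slco1 genes on chromosome 6 encode the main uptake carriers of hepatocytes for bile acids and bulky anions. Of 6 in the table, 3 were tested. In dHep 1 rose and 2 did not pass; in the libraries labelled KO 1 rose, 1 fell and 1 did not pass. The liver-specific Slco1b2, which takes up bilirubin conjugates, statins and bile acids, had 1899, 1887 and 1999 CPM in dHep, 2334, 1848 and 2122 CPM in the libraries labelled KO, and 2244, 1803 and 1730 CPM in WT. The 3 groups overlap. Its log2 difference from WT was 0.00 ± 0.16 for dHep and 0.13 ± 0.16 for the libraries labelled KO (SE, 3 libraries per group; adjusted p = 0.993 and 0.538, edgeR).

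Slco1a1, which takes up steroid conjugates and bile acids and is known as a male-predominant carrier of mouse liver and kidney, was low in WT and higher in the other 6 livers. It had 550, 863 and 606 CPM in dHep, 900, 715 and 866 CPM in the libraries labelled KO, and 38.1, 6.22 and 3.99 CPM in WT. Every dHep and KO-labelled library was above every WT library, and WT replicate 1 was the highest of its group. Slco1a1 rose by 5.39 ± 0.79 on the log2 scale in dHep (SE, adjusted p = 0.00212, edgeR), a fitted fold of 41.8, and by 5.68 ± 0.80 in the libraries labelled KO (adjusted p = 0.000798, edgeR). Without WT replicate 1 the values were 7.04 and 7.34. The libraries labelled KO and dHep overlap, with a difference of 0.30 ± 0.65 (adjusted p = 0.795, edgeR). DESeq2 gave this gene no adjusted p, and the calls against WT held under the other 16 alternatives.

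Slco1a4 lies next to Slco1a1 on the same strand and encodes a carrier known for digoxin uptake and for induction through the pregnane X receptor. It had 59.8, 109 and 40.8 CPM in dHep, 41.1, 16.1 and 34.3 CPM in the libraries labelled KO, and 68.1, 80.3 and 90.9 CPM in WT. All 3 libraries labelled KO lay below WT, whereas dHep overlaps both. Slco1a4 fell by 1.39 ± 0.39 on the log2 scale in the libraries labelled KO (SE, adjusted p = 0.0182, edgeR); the call was lost without KO replicate 2 (-1.08, adjusted p = 0.0543) and without WT replicate 3 (-1.28, adjusted p = 0.0594). In dHep the log2 difference was -0.19 ± 0.38 (adjusted p = 0.747, edgeR). Between the libraries labelled KO and dHep it was -1.20 ± 0.39 (adjusted p = 0.0816, edgeR), which passed with DESeq2 (adjusted p = 0.00994) and without dHep replicate 3 (adjusted p = 0.0281). The neighbouring Slco1c1, Slco1a5 and Slco1a6 had 35, 3 and 3 reads in all.

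Set on a scale per gene length, the change of Slco1a1 altered the make-up of the SLCO transcripts. Summed FPKM (CPM per kilobase of the deposited gene length) over the family averaged 832 ± 54.5 in dHep, 907 ± 103 in the libraries labelled KO and 656 ± 85.8 in WT (SD, n = 3 each). Slco1a1 made up 20.3% ± 3.73 of it in dHep, 23.0% ± 0.487 in the libraries labelled KO and 0.565% ± 0.615 in WT. Slco1b2 made up 70.6% ± 5.19, 70.3% ± 0.771 and 89.0% ± 1.16 in the same order. The FPKM ratio of Slco1a1 to its neighbour Slco1a4 ran from 7.62 to 14.3 in dHep, from 21.1 to 42.7 in the libraries labelled KO, and from 0.0423 to 0.539 in WT. None of these ranges overlaps another.

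**Figure D2:**
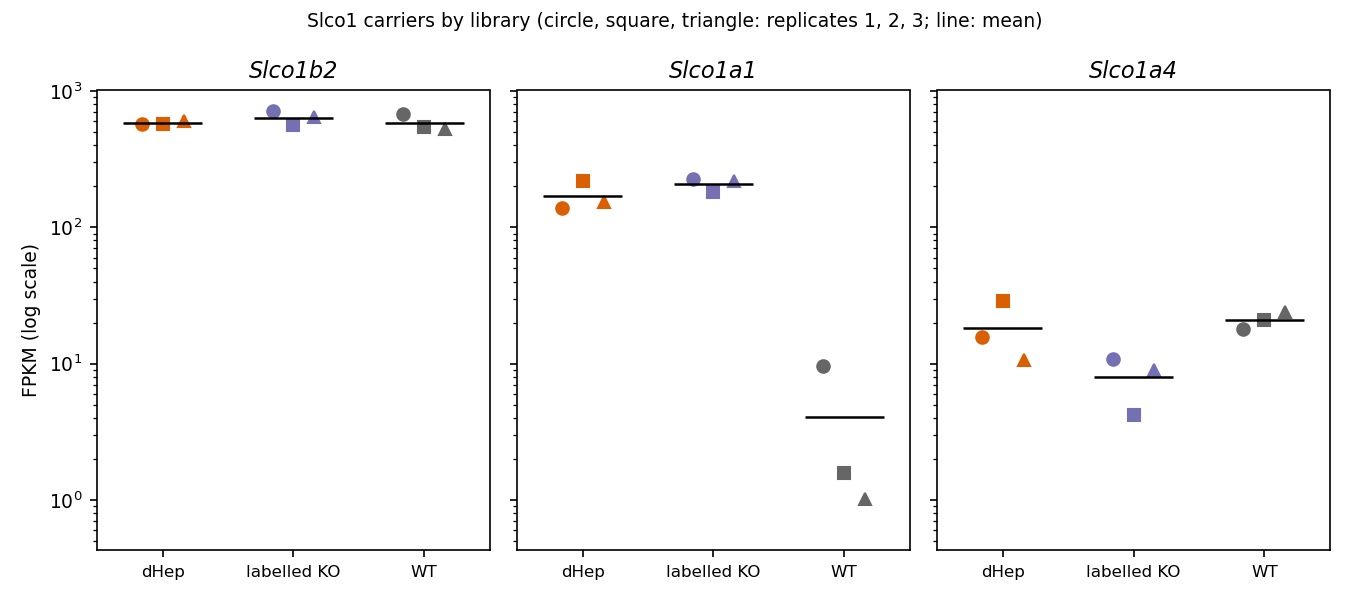
FPKM (log axis) of Slco1b2, Slco1a1 and Slco1a4 in each library, by group; lines are group means. Slco1b2 means lie at 585, 638 and 584 FPKM in dHep, the libraries labelled KO and WT, whereas Slco1a1 means lie at 170, 208 and 4.06 FPKM.

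Among the other SLCO genes 3 of 9 were tested, and the prostaglandin carrier Slco2a1 was the one that passed, upward in both comparisons with WT. Slco2a1 takes prostaglandins into cells for breakdown and is known from endothelium. It had 38.9, 54.1 and 35.2 CPM in dHep, 36.7, 29.7 and 32.8 CPM in the libraries labelled KO, and 19.4, 16.9 and 19.2 CPM in WT. Both groups lay above every WT library. The gene rose by 1.21 ± 0.17 on the log2 scale in dHep (SE, adjusted p = 0.00177, edgeR) and by 0.84 ± 0.17 in the libraries labelled KO (adjusted p = 0.00394, edgeR), and both calls held under all 17 alternatives. Of 6 endothelial markers 3 fell in dHep (Lyve1, Pecam1 and Stab2) and 3 did not pass, and in the libraries labelled KO 5 fell and 1 did not pass. The dHep calls of Stab2, Pecam1 and Lyve1 passed under 6, 12 and 14 of 17 alternatives, and that of Lyve1 in the libraries labelled KO under 12. Of all genes tested, 11.9% fell in dHep and 22.1% fell in the libraries labelled KO. The part of the endothelial markers in the Slco2a1 values was not tested. The summed marker level ran from 167 to 239 CPM in dHep, from 125 to 176 CPM in the libraries labelled KO and from 262 to 287 CPM in WT.

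Slco2b1, a broadly expressed carrier of steroid sulphates, had 181, 265 and 259 CPM in dHep, 213, 207 and 235 CPM in the libraries labelled KO, and 200, 213 and 202 CPM in WT. The groups overlap. Its log2 differences from WT were 0.20 ± 0.14 and 0.09 ± 0.14 (SE, adjusted p = 0.344 and 0.631, edgeR); without dHep replicate 1 the dHep value was 0.35 (adjusted p = 0.0205). Slco3a1, at 3.39 to 6.01 CPM over the 9 libraries, did not pass in any comparison.

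Slc22a3, a carrier of monoamines, ran from 1.53 to 9.62 CPM and did not pass, and Slc22a2, known from kidney, had 1 read.

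Of the carnitine and ergothioneine carriers 2 of 4 were tested and 1 passed, in the libraries labelled KO. Slc22a5, which takes carnitine into cells for the entry of long-chain fatty acids into mitochondria, had 13.3, 28.1 and 31.0 CPM in dHep, 17.8, 14.6 and 16.3 CPM in the libraries labelled KO, and 25.5, 29.8 and 31.5 CPM in WT. All 3 libraries labelled KO lay below WT, as did dHep replicate 1, while the other dHep libraries lay within the WT range. It fell by 0.84 ± 0.27 on the log2 scale in the libraries labelled KO (SE, adjusted p = 0.0302, edgeR). That call was lost without any one of KO replicates 1, 2 and 3 and WT replicates 2 and 3 (adjusted p = 0.0531 to 0.101). In dHep the difference was -0.27 ± 0.26 (adjusted p = 0.493, edgeR). Transcripts of Slc22a5 share 26.3% of their 50-base words with other genes, nearly all with Slc22a21, and 12.9% of their 100-base words. Reads that match both genes may be missing from the count of either, which was not tested. The ergothioneine carrier Slc22a4, at 2.21 to 4.43 CPM, did not pass.

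The organic anion carriers held most of the changes. Of the 13 listed, 6 were tested; in dHep 3 rose, 2 fell and 1 did not pass, and in the libraries labelled KO 3 rose and 3 fell. Slc22a7, a sinusoidal anion carrier known to move cyclic GMP and orotate, had 27.2, 36.9 and 102 CPM in dHep, 66.6, 81.6 and 110 CPM in the libraries labelled KO, and 16.9, 11.5 and 7.88 CPM in WT. Both groups lay above every WT library, and dHep replicate 3 stood far above the other dHep libraries. Slc22a7 rose by 2.83 ± 0.49 on the log2 scale in the libraries labelled KO (SE, adjusted p = 0.00204, edgeR). In dHep it rose by 2.19 ± 0.48 (adjusted p = 0.0114, edgeR), and by 1.40 without dHep replicate 3; the dHep call was lost without WT replicate 2 (adjusted p = 0.0527) and without WT replicate 3 (adjusted p = 0.0567).

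The other 5 tested anion carriers are neighbours on chromosome 19. A stretch of 955 kb (mm10, chr19:7673076-8628299) holds 8 genes in the table, all of them carriers, and in it Slc22a27, Slc22a28, Slc22a29 and Slc22a30 follow each other on the minus strand within 541 kb (chr19:7864389-8405105). Along this run the changes against WT alternated. Slc22a27 and Slc22a29 fell and Slc22a28 and Slc22a30 rose, both in dHep and among the libraries labelled KO. No exon of any carrier shares bases with another gene on the same strand.

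The 150 bases before the annotated starts of these 4 genes are printed here because neighbours with opposite changes can be set beside each other in sequence. They come from RefSeq (GRCm38.p6), read 5′ to 3′ on the minus strand, and end at the base before the start. Capitals mark the letters TTGCNNAA, a form of the C/EBP motif.
Slc22a27 (chr19:7966028-7966177): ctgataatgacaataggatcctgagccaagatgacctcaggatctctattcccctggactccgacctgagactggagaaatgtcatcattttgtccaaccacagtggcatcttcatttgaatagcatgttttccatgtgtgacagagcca
Slc22a28 (chr19:8131983-8132132): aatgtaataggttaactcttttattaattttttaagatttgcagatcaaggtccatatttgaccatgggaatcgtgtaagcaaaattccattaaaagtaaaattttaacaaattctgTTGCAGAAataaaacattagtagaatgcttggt
Slc22a29 (chr19:8218901-8219050): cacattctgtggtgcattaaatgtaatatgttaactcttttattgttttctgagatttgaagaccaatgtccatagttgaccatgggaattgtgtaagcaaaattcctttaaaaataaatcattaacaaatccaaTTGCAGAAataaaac
Slc22a30 (chr19:8405106-8405255): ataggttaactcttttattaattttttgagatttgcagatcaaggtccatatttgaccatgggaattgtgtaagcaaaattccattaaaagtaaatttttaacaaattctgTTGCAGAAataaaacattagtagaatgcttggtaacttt
The TTGCAGAA letters begin 33, 15 and 39 bases before the starts of Slc22a28, Slc22a29 and Slc22a30, and the window of Slc22a27 holds no match. The RefSeq start of Slc22a29, at 8218900, differs from the 5′ end in the count table, at 8218839.

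In a global alignment of 250-base windows, Slc22a28 and Slc22a30, which both rose, were 93.0% identical. Slc22a29, which fell, was 65.1% and 65.2% identical to them, and Slc22a27, which also fell, was 48.9% to 51.0% identical to the other 3. The same alignment of the 4 windows with that of Slco1a1, on another chromosome, gave 51.6% to 54.9%, so the window of Slc22a27 was no more like the other 3 than any of the 4 was like that of Slco1a1. A link between these identities and the directions of change was not tested. Over both strands of the 250-base windows, 4 motifs are reported. TTGCNNAA was found in 3 of the 10 carriers that changed in at least 1 comparison and had a window, which are the 3 paralogs printed here, and in 9.58% of 32544 windows of all genes. The STAT5 letters TTCNNNGAA, which read the same on both strands, were in 1 of the 10 (Slc22a26) and in 7.04% of all windows. The TATA letters TATAAA were in 2 (Slco1a1 and Slco2a1) and 12.3%, and the HNF4A letters CAAAGTCCA in 0 and 0.387%. Carriers that did not change or were not tested held motifs as well. Among them TTGCNNAA was in Slco1a5 and Slc22a6, and TATAAA in Slco1b2, Slco1a5 and Slc22a22. The STAT5 letters were in Slc22a15, Slco1b2, Slco1a5, Slco2b1, Slc22a16 and Slc22a19. No 2 motifs overlapped in the printed windows. Promoter windows were matched by symbol for 35 of the 41 carriers.

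Slc22a27 is an anion carrier known as more expressed in female than in male mice. It had 2.94, 4.14 and 3.24 CPM in dHep, 0.80, 0.81 and 0.58 CPM in the libraries labelled KO, and 25.9, 48.5 and 52.6 CPM in WT. The 3 groups lay apart, with the libraries labelled KO lowest, and WT replicate 1 was the lowest of its group. Slc22a27 fell by 3.62 ± 0.28 on the log2 scale in dHep (SE, adjusted p = 0.000135, edgeR) and by 5.83 ± 0.33 in the libraries labelled KO (adjusted p = 1.46e-05, edgeR). Both calls held under all 17 alternatives. Between the libraries labelled KO and dHep it fell by 2.21 ± 0.33 (adjusted p = 0.00531, edgeR), a call that limma voom did not make (-2.23, adjusted p = 0.186).

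Slc22a28, the next gene, is known as male-biased in mouse liver. It had 15.5, 12.7 and 20.3 CPM in dHep, 24.3, 28.6 and 29.9 CPM in the libraries labelled KO, and 5.56, 1.37 and 1.28 CPM in WT. The order of the groups is the reverse of that of Slc22a27, with WT replicate 1 again nearest to the other groups. It rose by 2.56 ± 0.48 on the log2 scale in dHep (SE, adjusted p = 0.00613, edgeR) and by 3.34 ± 0.49 in the libraries labelled KO (adjusted p = 0.000983, edgeR), and by 3.60 and 4.37 without WT replicate 1. Libraries labelled KO and dHep did not overlap, but their difference of 0.77 ± 0.44 did not pass (adjusted p = 0.278, edgeR); it passed without WT replicate 1 (0.77, adjusted p = 0.0414).

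Slc22a29 had 4.71, 3.41 and 5.25 CPM in dHep, 2.72, 3.03 and 3.29 CPM in the libraries labelled KO, and 12.4, 23.5 and 20.9 CPM in WT. Both groups lay below every WT library. It fell by 2.09 ± 0.25 on the log2 scale in dHep (SE, adjusted p = 0.000887, edgeR) and by 2.65 ± 0.26 in the libraries labelled KO (adjusted p = 0.000215, edgeR). The difference between the libraries labelled KO and dHep was -0.56 ± 0.26 (adjusted p = 0.184, edgeR) and passed once, without WT replicate 1 and dHep replicate 2 together (-0.72, adjusted p = 0.0475).

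Slc22a30 is the most abundant gene of the run. It had 134, 108 and 143 CPM in dHep, 157, 179 and 174 CPM in the libraries labelled KO, and 100, 78.7 and 71.6 CPM in WT. The 3 groups did not overlap, and WT replicate 1 lay close under dHep replicate 2. Slc22a30 rose by 1.03 ± 0.15 on the log2 scale in the libraries labelled KO (SE, adjusted p = 0.000883, edgeR). In dHep it rose by 0.62 ± 0.15 (adjusted p = 0.0154, edgeR), a call lost without WT replicate 2 (adjusted p = 0.0721) and without WT replicate 3 (adjusted p = 0.0752).

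Slc22a26, which lies just before this run on the same strand, was low everywhere. It had 9, 158 and 17 reads in dHep, 0, 2 and 1 reads in the libraries labelled KO, and 29, 41 and 23 reads in WT. The high dHep value came from replicate 2, the library with pancreatic and muscle reads, and the part of those reads in it was not tested. At this depth the libraries labelled KO had 3 reads in all against 93 in WT, 23.1-fold lower (95% exact counting interval 7.65 to 114), and against 184 in dHep, 47.4-fold lower (16.0 to 232). Of those 184 reads 158 came from dHep replicate 2; against the 26 of the other dHep libraries the fold was 9.79 (3.00 to 50.6). These intervals cover counting error only, not the spread between libraries. The adjusted p of edgeR was 0.0312 against WT and 0.0363 against dHep; these calls were lost under 6 of 17 and 9 of 16 alternatives, including each fit without a library labelled KO. Without dHep replicate 2 the log2 difference between the libraries labelled KO and dHep was -3.28 (adjusted p = 0.0568, edgeR), against -5.51 with it. In dHep the log2 difference from WT was 1.11 ± 0.90 (adjusted p = 0.395, edgeR), and -1.11 without dHep replicate 2.

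**Figure D3:**
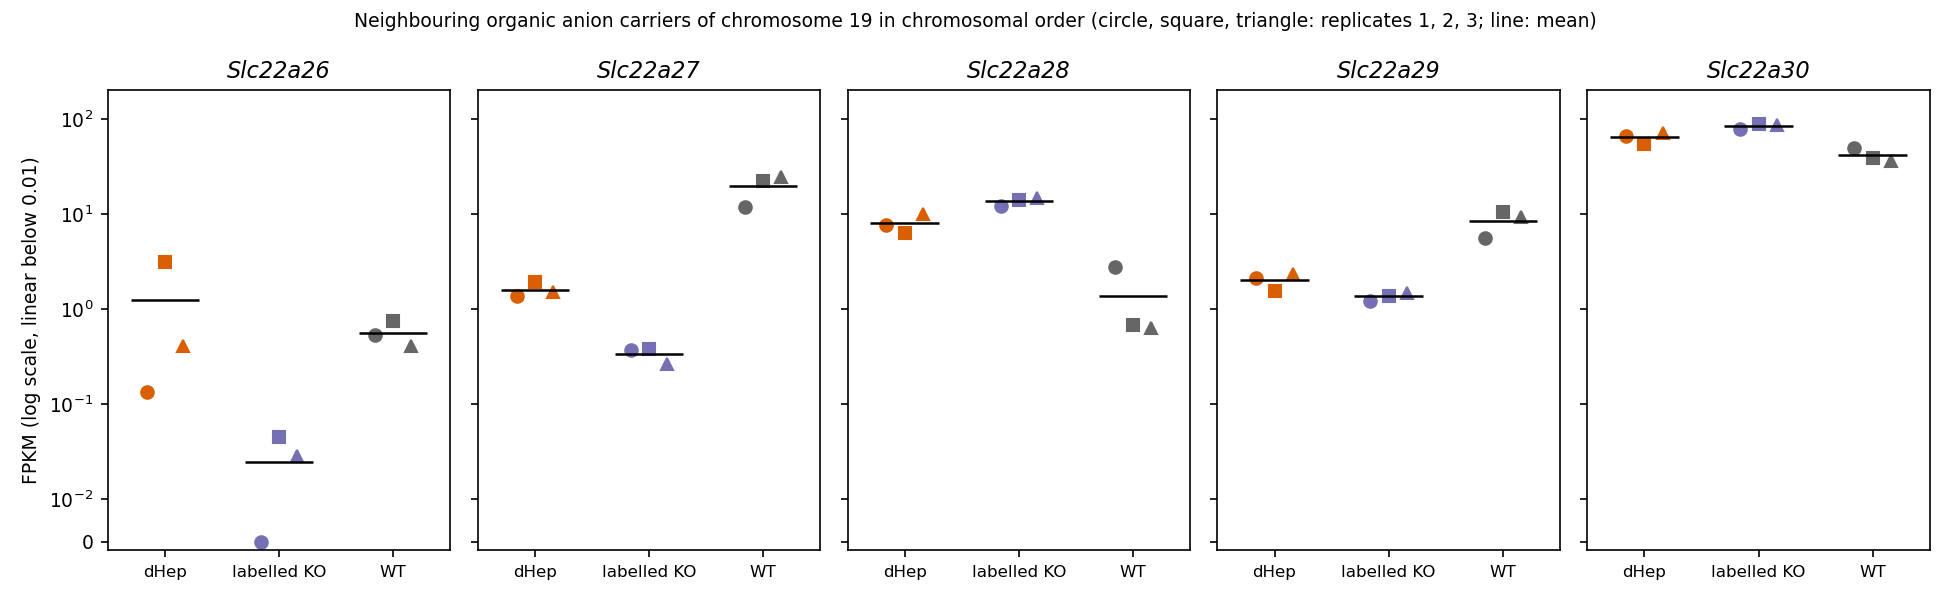
FPKM of Slc22a26 to Slc22a30 in each library, in chromosomal order (log axis, linear below 0.01); lines are group means. Slc22a27 and Slc22a29 are highest in WT (means 19.7 and 8.57 FPKM), and Slc22a28 and Slc22a30 are lowest there (1.37 and 41.8 FPKM).

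Per gene length the summed level of the 5 genes changed less than its make-up. It averaged 77.1 ± 9.40 FPKM in dHep, 101 ± 7.45 in the libraries labelled KO and 72.0 ± 1.76 in WT (SD, n = 3 each). Slc22a27 held 2.12% ± 0.644 of it in dHep, 0.339% ± 0.0741 in the libraries labelled KO and 27.3% ± 9.24 in WT. Slc22a28 held 10.4% ± 1.27, 13.7% ± 0.609 and 1.91% ± 1.72 in the same order. The share of Slc22a29 was 2.60%, 1.36% and 11.9%, and that of Slc22a30 was 83.1%, 84.6% and 58.1%. The FPKM ratio of Slc22a28 to Slc22a27 ran from 3.28 to 6.73 in dHep, from 32.7 to 55.6 in the libraries labelled KO and from 0.0262 to 0.231 in WT, so the 3 groups lay apart on this ratio.

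**Figure D4:**
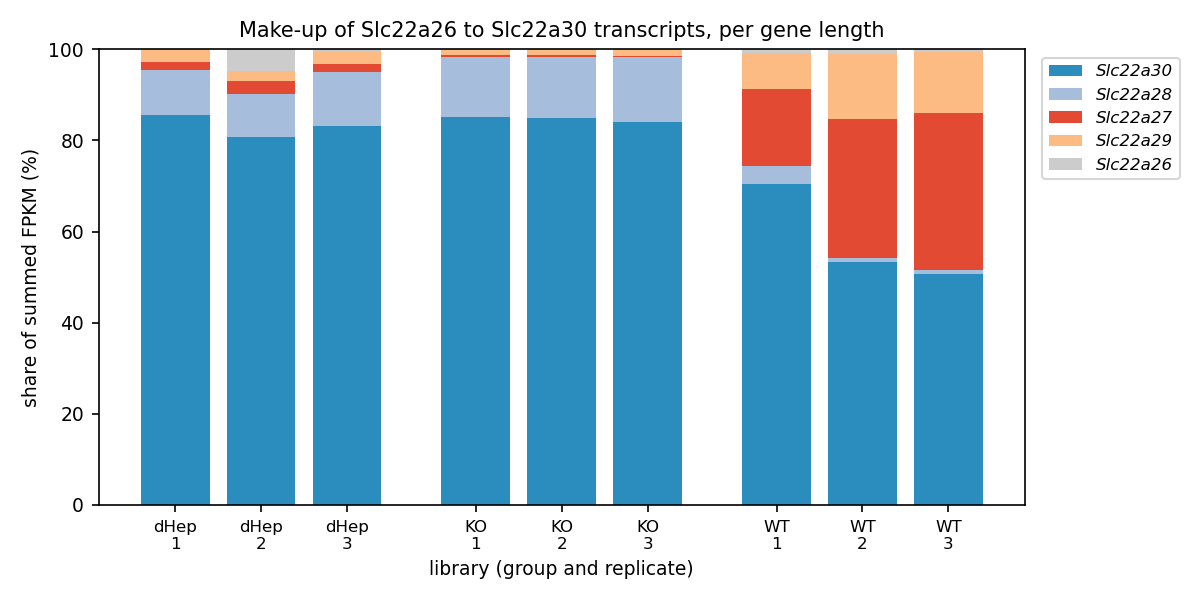
Share of the summed FPKM of Slc22a26 to Slc22a30 held by each gene (percent), one bar per library; KO stands for the libraries labelled KO. Slc22a27 holds at most 2.86% in the dHep libraries and 0.403% in those labelled KO, against 16.9%, 30.5% and 34.5% in the WT libraries, and WT replicate 1 has the most Slc22a30 and Slc22a28 of its group.

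These genes are close copies, which limits how far each count belongs to its gene. Of the 50-base words in the transcripts of Slc22a28, 53.9% also occur in transcripts of other genes, mostly of Slc22a30, and 34.2% of those of Slc22a30 do. The figures were 29.9% for Slc22a27 and 28.7% for Slc22a29, which share most with each other. For words of 100 bases they were 37.0%, 21.1%, 7.31% and 7.51% for Slc22a28, Slc22a30, Slc22a27 and Slc22a29. The 2 genes of each such pair moved in the same direction. Reads that match both genes of a pair may be missing from both counts or counted for the wrong gene, which was not tested. The shares and ratios per gene length carry the same limit. Slco1a1 and Slco1a4 share 1.64% and 1.61% of their 50-base words.

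Of the other SLC22 genes 4 of 5 were tested and Slc22a18 was the one that passed. Slc22a18, an imprinted gene whose substrate is not settled, had 63.6, 70.0 and 120 CPM in dHep, 97.6, 110 and 106 CPM in the libraries labelled KO, and 58.4, 60.7 and 66.8 CPM in WT. The libraries labelled KO lay above WT, and dHep overlaps both. It rose by 0.75 ± 0.21 on the log2 scale in the libraries labelled KO (SE, adjusted p = 0.0169, edgeR), lost without KO replicate 2, WT replicate 1 or WT replicate 2 (adjusted p = 0.0560 to 0.0586). In dHep the difference was 0.44 ± 0.21 (adjusted p = 0.146, edgeR). Slc22a23, at 83.0 to 121 CPM, had log2 differences from WT of -0.06 ± 0.14 and 0.04 ± 0.14 (adjusted p = 0.790 and 0.846, edgeR), and its groups overlap. Slc22a15, at 5.46 to 9.82 CPM, and Slc22a17, at 0.259 to 0.589 CPM, did not pass.

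**Figure D5:**
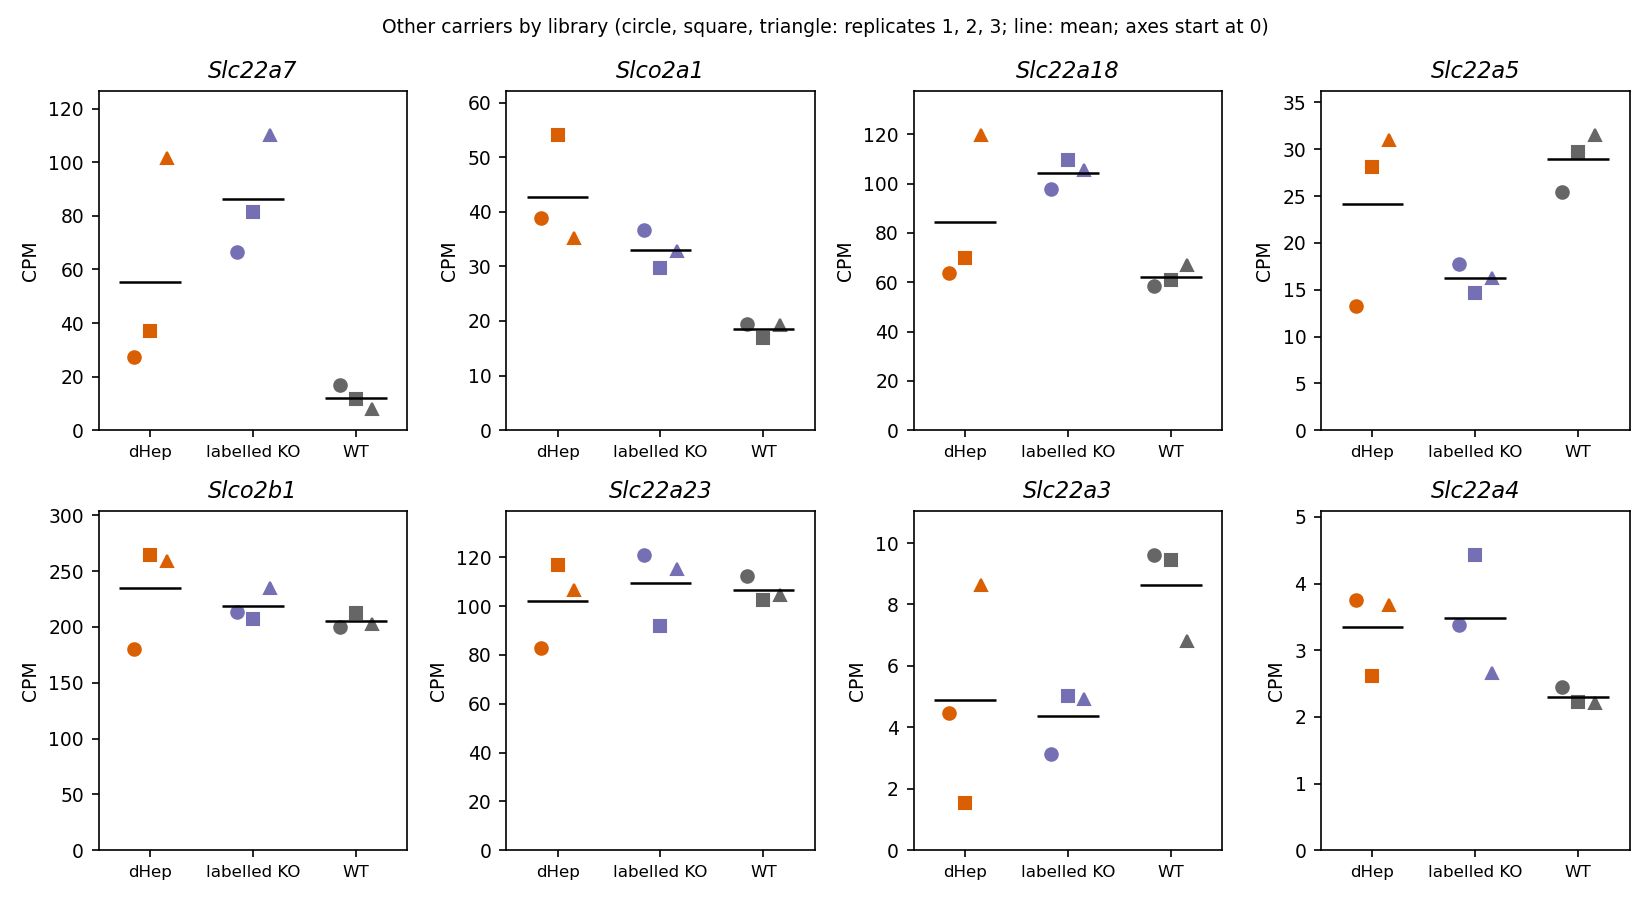
CPM of 8 further carriers in each library, each on its own axis from 0; lines are group means. Slc22a7 and Slco2a1 are above all WT libraries in the other 2 groups, Slc22a18 and Slc22a5 are apart from WT in the libraries labelled KO, and the lower 4 panels hold genes that did not pass; Slc22a3 and Slc22a4 were added to the carriers with values per library.

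Several carriers with the widest gaps are known for sex-dependent levels, and sex-biased liver genes outside the carrier families moved as well. The lists of such genes were chosen with earlier results of these data known, so their counts are not an independent check. Of 14 male-biased genes, 9 rose in dHep, 12 rose in the libraries labelled KO and 6 were higher in the libraries labelled KO than in dHep. Of 15 female-biased genes, one of which (Cux2) is also on the list of regulators, 8 were tested; 5 fell in dHep, 7 fell in the libraries labelled KO and 5 were lower in the libraries labelled KO than in dHep. Of all genes tested, 12.4%, 20.9% and 4.23% were higher and 11.9%, 22.1% and 5.39% lower in these comparisons. All calls of these lists in the libraries labelled KO against WT passed under all 17 alternatives. In dHep the male-biased calls passed under 12 to 17 and the female-biased calls under 14 to 17. Between the libraries labelled KO and dHep the male-biased calls passed under 6 to 15 and the female-biased calls under 9 to 17. The summed male-biased level was 7997 to 14858 CPM in dHep, 28813 to 35927 CPM in the libraries labelled KO and 7701, 4074 and 4286 CPM in WT replicates 1, 2 and 3. The summed female-biased level was 113 to 296 CPM in dHep, 15.8 to 20.8 CPM in the libraries labelled KO and 479, 901 and 707 CPM in WT. In both sums WT replicate 1 lay nearest to the other groups, as it did for Slco1a1 and all 4 genes of the chromosome 19 run. A few genes held most of each sum, so neither sum stands for every gene of its list. The male-biased gene with the highest level held most of its sum in WT. That gene did not pass in dHep against WT (0.54 on the log2 scale, adjusted p = 0.301, edgeR). These sums moved with the carriers, and their part in the carrier changes was not tested.

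Hepatocytes pass on what these carriers take up through export pumps of the bile and blood sides. Of 13 such partners, counted with the bile salt uptake carrier Slc10a1, 11 were in the table and tested. Of the 11, 7 changed in dHep, 6 in the libraries labelled KO and 3 between the libraries labelled KO and dHep, beside 24.3%, 43.0% and 9.62% of all genes. In dHep 2 rose (Abcc6 by 0.79 ± 0.14 and Slc10a1 by 1.03 ± 0.19 on the log2 scale; SE) and 5 fell. The falls in dHep included Abcb4, the phospholipid pump of bile (-0.88 ± 0.11, adjusted p = 0.00100, edgeR), Abcc3 (-0.92 ± 0.22) and Abcc4 (-1.48 ± 0.39), pumps towards the blood. In the libraries labelled KO 3 rose, Abcc6, Slc10a1 and Abcb1b, and 3 fell. The largest fall there was that of the drug pump Abcb1a (-3.16 ± 0.47, adjusted p = 0.00102, edgeR), followed by Abcc4 (-2.74 ± 0.42) and the conjugate pump Abcc2 (-0.75 ± 0.18). Between the libraries labelled KO and dHep, Abcb4 (0.61 ± 0.11) and Abcb1b (1.22 ± 0.32) were higher and Abcb1a (-1.81 ± 0.46) was lower. The median log2 fold change of the 11 was -0.28, -0.10 and 0.09 in the 3 comparisons, against 0.02, -0.01 and -0.02 over all genes. In dHep the call of Abcc4 passed under 12 of 17 alternatives and that of Abcc3 under 14; those of Abcb4, Abcc6 and Slc10a1 passed under all 17. Between the libraries labelled KO and dHep the calls of Abcb4, Abcb1a and Abcb1b passed under 14, 6 and 4 of 17, and that of Abcb1b against WT under 14.

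Of 18 transcription regulators known for control of these genes, 17 were tested. In dHep 5 of the 17 changed, where 24.3% of all genes did, and in the libraries labelled KO 6 of the 17, where 43.0% of all genes did. In dHep 4 rose, among them Foxa3 (1.31 ± 0.28 on the log2 scale, SE), Cebpb and Cebpa, and 1 fell, the oxidative stress factor Nfe2l2 (-0.76 ± 0.17). In the libraries labelled KO 5 rose, among them Foxa3 (1.54 ± 0.28), Foxa1, Foxa2 and Cebpa, and the fatty acid receptor Ppara fell (-0.96 ± 0.20). The rise of Cebpa passed under 5 of 17 alternatives in dHep and 8 of 17 in the libraries labelled KO. Cebpb passed under 9 in dHep, and Foxa1 and Foxa2 under 13 and 12 in the libraries labelled KO. Between the libraries labelled KO and dHep 0 of the 17 passed in edgeR (3 at an unadjusted p under 0.05), 3 in DESeq2 and 0 in limma voom (2 unadjusted). Hnf4a, the nuclear receptor named by the study's title, had log2 differences from WT of 0.31 ± 0.13 for dHep and 0.32 ± 0.13 for the libraries labelled KO (adjusted p = 0.105 and 0.0692, edgeR). The median of the 17 was 0.31, 0.27 and -0.03 in the 3 comparisons.

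Per gene length, Slco1b2 had the highest level of the tested carriers in each group, and the order changed below it. Slco1a1 ran from 139 to 218 FPKM in dHep and from 180 to 227 FPKM in the libraries labelled KO, and in both it lay above the range of Slc22a30 (54.2 to 71.4 FPKM and 78.4 to 89.8 FPKM). In WT Slco1a1 was the 13th of the 20 tested carriers, while Slc22a30 lay at 35.8 to 50.2 FPKM, which overlaps Slco2b1 at 40.1 to 42.7 FPKM. Slc22a27 was the 14th in dHep, the 18th in the libraries labelled KO and the 7th in WT.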

How the data were processed

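Polyadenylated RNA of 9 mouse livers was measured with stranded libraries, per the labels. Per the submitters' processing notes, reads were checked with FastQC and aligned to mm10 with HISAT2 2.1.0; DESeq2 is named there too. The deposited values are, per the file headers, raw read counts made by featureCounts 1.6.2 with strand setting 2, and the recorded command carries no option for multi-mapping or multi-overlapping reads. The Length column of the table gives gene lengths in bases, per the file headers.

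Counts of all genes were fitted together in edgeR 4.0.16 under R 4.3.3 (quasi-likelihood, TMM factors), after filterByExpr (minimum count 10, minimum total 15), which left 13141 genes. P-values were adjusted over all of them (Benjamini-Hochberg, threshold 0.05). The SE is the log2 fold change divided by the square root of F. CPM uses TMM-scaled library sizes; FPKM is CPM per kilobase of Length. Exact permutation of 3 against 3 libraries cannot go below p = 0.1. Alternatives used DESeq2 1.42.0, limma 3.58.1 voom, other scaling and filters, a replicate block, 2 groups alone and each library left out, 17 in all; the joint removal of WT replicate 1 and dHep replicate 2 was chosen after seeing the data. The fit was tested on simulated data. Shared words of 50 and 100 bases were counted in GENCODE M21 transcripts, and promoter windows are those of RefSeq.

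The carriers and gene lists were chosen with earlier results of these data known. Values per library are given for carriers that passed in at least 1 comparison and reached 1 CPM in a group, or that averaged 5 FPKM or more; from each partner list up to 3 called genes per direction are named. Other carriers and the sex-linked and tissue genes with values were named besides. Some genes of these families and lists enter the counts but are not reported here.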

Additional observations from a re-analysis of the deposited data

How the results depend on the processing

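Of the carriers with values per library, 5 of 7 calls in dHep against WT, 7 of 11 in the libraries labelled KO against WT and 0 of 2 in the libraries labelled KO against dHep held wherever an alternative gave a value. Leaving out 1 library at a time, 5 to 8, 7 to 13 and 1 to 6 carriers passed in the 3 comparisons. The lowest of the second, 7, came without KO replicate 2. In the third, 6 (3 higher, 3 lower) came without dHep replicate 3 and 1 without dHep replicate 2, any one library labelled KO, WT replicate 2 or WT replicate 3. In the third comparison limma voom called 0 carriers (8 at an unadjusted p under 0.05; edgeR called 2 and DESeq2 3), and a fit of those 2 groups alone called 1. Over all genes, the calls with 1 library left out ran from 1359 to 4025 in dHep against WT (1952, 1438 and 1359 without WT replicates 1, 2 and 3), from 3835 to 6547 in the libraries labelled KO against WT, and from 386 to 2809 in the libraries labelled KO against dHep. In that last comparison the highest count came without dHep replicate 3; it was 419 and 386 without KO replicates 2 and 3, and 807, 692 and 722 without WT replicates 1, 2 and 3. The main count of 1264 there became 2068 with DESeq2, 802 with limma voom, 342 with 2 groups alone and 495 with WT replicate 1 and dHep replicate 2 both out. In the main fit all 9 libraries share 1 estimate of the spread. A WT library thus also enters the comparison of the libraries labelled KO with dHep. Beyond this and the smaller number of libraries, the cause of these shifts was not tested.

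Among the carriers reported, the sign turned only for differences that had not passed. In dHep against WT, Slc22a26 ran from -1.11 (without dHep replicate 2) to 1.66 with 1 library left out, and was -0.38 with limma voom and -1.15 with WT replicate 1 and dHep replicate 2 out. Leaving out 1 library also gave ranges of -0.49 to 0.0305 for Slc22a5 and -0.17 to 0.0714 for Slc22a23, both above 0 without dHep replicate 1, and of -0.66 to 0.0822 for Slco1a4, above 0 without dHep replicate 3. For Slco1b2 the range was -0.0712 to 0.13, below 0 without dHep replicate 3, WT replicate 2 or WT replicate 3, and the value was -0.0030 with no filter. In the libraries labelled KO, Slc22a23 ran from -0.0237 (without KO replicate 1) to 0.15 against WT, and from -0.0318 (without dHep replicate 1) to 0.21 against dHep. The cause was not tested.

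The replicate numbers, which no label ties to a litter or day, did not pair the samples: the correlation of same-numbered libraries ran from -0.272 to 0.0273, and 0 libraries correlated best with their own number. With the replicate block 7, 11 and 2 carriers and 2781, 5292 and 954 genes passed in the 3 comparisons, against 7, 11 and 2 carriers and 3192, 5653 and 1264 genes without it.

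Depth limits Slc22a26 and the 21 untested carriers, and 3 libraries per group limit every comparison. Shared sequence limits how far the counts of Slc22a27 to Slc22a30 belong to each gene.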
